A study of Rattus norvegicus with 6 samples.

Results

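The 10 genes described here encode the enzymes that route choline into phospholipid or into methyl donors in liver, namely Chka, Pcyt1a, Pcyt2, Pemt, Chdh, Bhmt, Dmgdh, Sardh, Gnmt and Mat1a. They were taken by gene name from the deposited gene expression table of 30957 genes, and each name matched exactly 1 row. RNA of the liver was read in 3 rats of the t-PBS group and 3 of the t-DHEA group, all female Sprague Dawley rats bought at 3 weeks of age. All 6 rats had first received repeated courses of an antibiotic cocktail that depleted their own gut microbes (pseudo germ-free), and then a daily gavage of pooled donor faeces for 14 days. The donors of t-PBS rats had been injected with phosphate buffer saline, and those of t-DHEA rats with dehydroepiandrosterone (DHEA), an androgen precursor used to induce a model of polycystic ovary syndrome. Such depletion is partial, so that recipients may have kept some gut microbes of their own. Rats were housed in shared cages, and cage mates were not named in the sources used here. Because donor faeces were pooled, group and donor pool cannot be told apart. The comparison asks whether liver transcripts of this pathway differed after transfer of the DHEA-shaped microbiota.

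Choline reaches the liver from the diet and is phosphorylated and built into phosphatidylcholine by the CDP-choline branch of the Kennedy pathway, or oxidized in mitochondria to betaine. Betaine gives a methyl group to homocysteine, which restores methionine, and the rest of the molecule is stripped of its remaining methyl groups to glycine. Methionine is activated to S-adenosylmethionine, which the liver spends largely on methylating phosphatidylethanolamine to phosphatidylcholine and glycine to sarcosine. In rodents, a shortage of choline or methyl groups is a classical cause of fatty liver, and gut bacteria compete with the host for dietary choline.

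Chka, the kinase that starts the CDP-choline branch, was the only one of the 10 genes that met the criteria of a raw p below 0.05 and a fold-change above 1.2 in edgeR's quasi-likelihood test. It fell in t-DHEA livers (log2 fold change -0.53). Of all 12210 genes tested, 604 met these criteria, or 4.95%, with 364 lower (2.98%) and 240 higher (1.97%) in t-DHEA livers, and 1 of 10 is too few genes to stand apart from these shares. The other 9 genes gave log2 fold changes between -0.22 and 0.08, and the 95% interval of each included 0. No gene of the table had a Benjamini-Hochberg adjusted p below 0.05 in this test, where the lowest was 0.242. An exact permutation test of a single gene cannot go below 0.1 with 3 livers against 3. Before adjustment 634 genes (5.19%) had a p below 0.05, and DESeq2 and edgeR's likelihood-ratio test gave 24 and 28 genes with an adjusted p below 0.05.

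Libraries held between 12348511 and 14316886 counts on genes, and each of the 10 genes had 365 counts or more in every liver. Of 8 hepatocyte markers tested, albumin among them, none met the criteria (summed CPM from 174471 to 189864 in t-PBS and from 185529 to 202449 in t-DHEA livers). None of 7 pericentral markers and 1 of 8 periportal markers met them, where 4.95% of all genes tested did. Among markers of other cells, 3 of 8 stellate, 2 of 4 bile duct and 3 of 5 mesothelial genes met the criteria as lower in t-DHEA livers (2.98% of all genes tested did). As higher, 3 of 5 red blood cell, 1 of 4 smooth muscle and 1 of 7 sinusoidal endothelial genes met them (1.97% of all genes tested did), and none of 8 Kupffer cell and 5 lymphocyte genes met them in either direction. The summed level ran from 562 to 730 CPM in t-PBS and from 462 to 543 CPM in t-DHEA livers for the stellate genes, from 18.6 to 23.0 and from 9.19 to 15.98 CPM for the bile duct genes, from 223 to 271 and from 235 to 247 CPM for the mesothelial genes, and from 185 to 284 and from 304 to 589 CPM for the red cell genes. It ran from 18.7 to 25.8 and from 27.4 to 41.3 CPM for the smooth muscle genes, and from 303 to 455 and from 428 to 432 CPM for the endothelial genes. The mesothelial list had a median log2 fold change of -1.87 (from -2.59 to 0.042), which its summed level does not show. No gene of these lists was at 0 in every liver. In whole liver, fewer cells of a type and less RNA per cell cannot be told apart. The part of these cells in the values below was not tested.

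Per kilobase of gene, the 10 genes spanned a wide range of levels, given here as the deposited FPKM (fragments scaled to gene length and library size). Bhmt was the most abundant at 775 ± 246 FPKM (SD, n = 6 livers), followed by Mat1a at 419 ± 49.5 FPKM. Pcyt2 (184 ± 13.5 FPKM) and Pemt (146 ± 14.2 FPKM) came next, and then Dmgdh (87.5 ± 11.4 FPKM). Sardh and Chdh, at 56.6 ± 4.19 and 54.3 ± 7.92 FPKM, could not be ordered, since Sardh was the higher in only 4 of 6 livers. Gnmt stood at 33.7 ± 3.71 FPKM. Chka (19.2 ± 5.52 FPKM) and Pcyt1a (12.3 ± 1.27 FPKM) were the least abundant and overlapped, with Chka above Pcyt1a in 5 of 6 livers. All other neighbours in this order had ranges that did not overlap. The 2 most abundant genes thus belong to the methionine cycle, and the 2 least abundant to the CDP-choline branch.

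**Figure D1:**
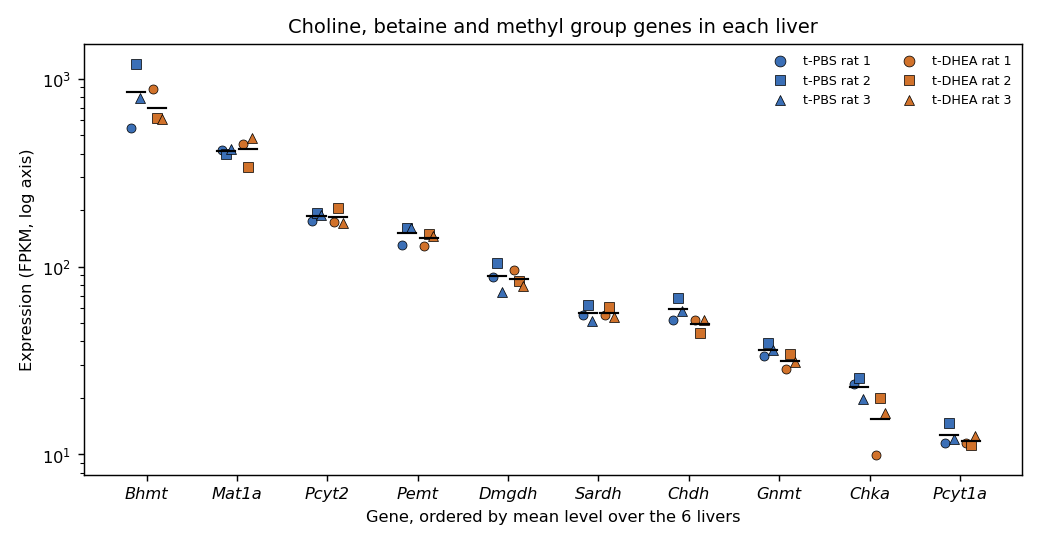
Expression of each gene in each liver as FPKM on a log axis, ordered by mean level; colours mark the groups, symbols the rat number and bars the group means. Bhmt reaches 1205 FPKM in t-PBS rat 2 and Chka falls to 9.91 FPKM in t-DHEA rat 1, while the groups overlap for every gene.

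Chka lies on chromosome 1 of Rnor_6.0, from 219077771 to 219126220. Its normalized expression (counts scaled to library size with TMM factors, CPM) was 70.7, 72.9 and 58.7 for t-PBS and 30.1, 59.95 and 50.2 for t-DHEA, in the order of rats 1, 2 and 3, which is kept below. The lowest value was that of t-DHEA rat 1, and the groups overlapped, because t-DHEA rat 2 lay just above t-PBS rat 3. The means were 67.4 ± 7.66 CPM (SD, n = 3) in t-PBS and 46.7 ± 15.2 CPM (SD, n = 3) in t-DHEA livers. The difference of -0.53 (log2, SE 0.22) had a 95% interval from -1.03 to -0.03, with a raw p of 0.0402 and an adjusted p of 0.957 (edgeR, quasi-likelihood). Omitting t-DHEA rat 1 gave -0.29, with a raw p of 0.0679 in the same test. With a liver omitted, Chka met the criteria in 2 of 6 fits, those lacking t-PBS rat 3 or t-DHEA rat 2, and in none of the other 4. The share of all genes that met them was 4.49%, 4.15% and 5.50% without t-PBS rats 1, 2 and 3, and 6.01%, 4.84% and 5.02% without t-DHEA rats 1, 2 and 3. Chka also met them in all 7 fits with another tool, scaling, filter or unit, where the shares of all genes were 3.39% (DESeq2), 4.98% (likelihood-ratio test), 4.92% (RLE size factors), 5.14% (total count only), 4.52% (no filter), 4.74% (10 counts or more in every liver) and 5.02% (limma on FPKM). At a fold-change above 1.5 it did not, and 2.25% of all genes did.

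Some clock genes also differed between the groups, and Chka was lowest where Per2 was highest. Per2, a repressor of the circadian clock, was 8.33, 8.40 and 9.43 CPM in the t-PBS and 21.8, 11.7 and 13.5 CPM in the t-DHEA livers. Its highest value fell in the liver with the least Chka, and its groups did not overlap. Dbp, a clock output factor, was 31.9, 29.1 and 62.4 CPM in the t-PBS and 112, 41.7 and 123 CPM in the t-DHEA livers. The Dbp groups overlapped. Arntl, the clock activator, was 36.6, 29.0 and 25.9 CPM in the t-PBS and 14.1, 22.4 and 13.7 CPM in the t-DHEA livers. With a liver omitted, Dbp met the criteria in 2 of 6 fits, and Per2 and Arntl did in all 6. Within the t-DHEA group, rat 2 had the Dbp and Arntl values closest to the t-PBS livers and also the highest Chka. The highest Dbp and the lowest Arntl, however, were those of rat 3, where Chka was not lowest. Over the 6 livers, Pearson r with Per2 was -0.97 for Chka, -0.87 for Gnmt and between -0.42 and 0.46 for the rest of the 10 genes. With other clock genes, the r of Chka was -0.92 for Tef, -0.89 for Per3, -0.82 for Dbp, 0.87 for Npas2 and 0.82 for Arntl. Clock, which is listed with Arntl, had an r of 0.34 with Chka. Others of the 10 genes had a larger r with clock genes other than Per2, such as 0.77 for Mat1a with Dbp and -0.61 for Pemt with Clock. Of 10 tested genes of the list that holds Dbp, 9 had a positive log2 fold change and 4 met the criteria as higher (1.97% of all genes tested did). The summed level of this list ran from 328 to 406 CPM in t-PBS and from 323 to 591 CPM in t-DHEA livers. Of 5 genes of the list that holds Arntl, 4 had a negative log2 fold change and 1 met the criteria as lower (2.98% of all genes tested did). Its summed level ran from 118 to 160 and from 94.5 to 135 CPM, and no gene of either list was at 0 in every liver. The part of the clock in the difference of Chka was not tested.

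**Figure D2:**
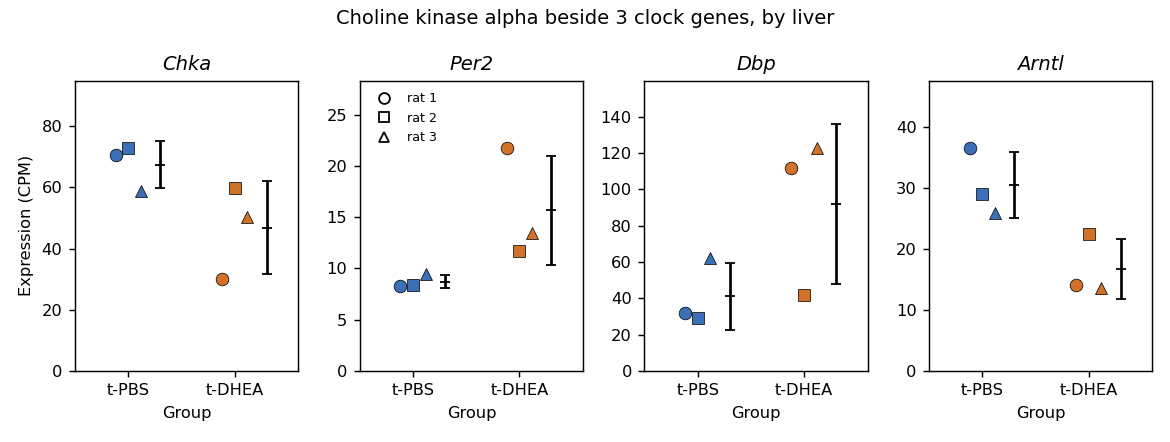
Expression in CPM of Chka, Per2, Dbp and Arntl in each liver, with symbols for the rat number and the group mean ± SD (n = 3) beside the points. Chka is lowest and Per2 highest in t-DHEA rat 1, at 30.1 and 21.8 CPM.

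Among 7144 other genes tested with a mean of at least 10 CPM, the 3 whose log2 CPM followed Chka most closely over the 6 livers were Alg14, Tmem56 and LOC288913, each with a Pearson r of 0.98. This is a description over 6 livers from a search of many genes. All 3 were likewise lowest in t-DHEA rat 1, but their log2 fold changes were small, at -0.10, -0.10 and -0.12, and none met the criteria.

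The promoter of Chka is shown because Chka carried the only call, and that of Bhmt because Bhmt was the most abundant and, after Chka, the most variable gene between livers. The sequences are from RefSeq on GRCr8, a later build than that of the counts, and hold the 250 bases before the start of the gene on the gene's own strand. Chka lies on the plus strand (chr1:210505865-210506114) and Bhmt on the minus strand (chr2:26614430-26614679). Capitals mark GC boxes with the letters GGGCGG on either strand. They also mark CCAAT boxes and the nuclear receptor motif AGGTCA, again on either strand. The TATA box, read as TATAAA on the strand of the gene only, is in capitals as well.
Chka promoter: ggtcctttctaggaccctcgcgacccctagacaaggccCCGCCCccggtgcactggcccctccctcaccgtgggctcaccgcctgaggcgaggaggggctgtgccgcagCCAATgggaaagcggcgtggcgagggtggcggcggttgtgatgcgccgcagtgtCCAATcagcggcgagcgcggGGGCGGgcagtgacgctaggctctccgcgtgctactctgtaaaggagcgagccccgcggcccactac
Bhmt promoter: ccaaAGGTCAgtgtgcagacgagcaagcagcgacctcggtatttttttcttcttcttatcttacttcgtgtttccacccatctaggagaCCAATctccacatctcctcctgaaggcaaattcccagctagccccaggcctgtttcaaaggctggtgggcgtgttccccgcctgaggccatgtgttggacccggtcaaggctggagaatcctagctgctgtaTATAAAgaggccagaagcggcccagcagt
The Chka promoter was 70.8% G and C with 26 CpG dinucleotides, had a GC box on each strand and 2 CCAAT boxes, and did not hold the letters TATAAA. The Bhmt promoter was 53.6% G and C with 8 CpG dinucleotides and had a TATA box from -29 to -24, where the start of the gene is 0.

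Of the 10 genes, 9 had an entry among the 33469 RefSeq promoters of 300 bases (250 before and 50 after the start). GC boxes were found in 5 of the 9 (Chka, Pcyt1a, Pcyt2, Chdh and Gnmt) and in 33.1% of all promoters. The CCAAT letters were found in 6 of the 9 and in 37.5%, and the AGGTCA letters in 4 (Pemt, Chdh, Bhmt and Gnmt) and in 16.2%. A TATA box was found in Bhmt alone among the 9, and in 8.80% of all promoters. The clock E-box CACGTG was found in Sardh alone, and in 6.42% of all promoters. None of the 9 held the D-box letters TTATGTAA, TTACGTAA or TTATATAA, which 1.48% of promoters did. These letters were searched on both strands, except TATAAA. A match in this window is a description of the sequence and not of binding.

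The later steps of the CDP-choline branch differed by less than the spread between rats. Pcyt1a, the CTP-using enzyme that sets the pace of phosphatidylcholine synthesis (chromosome 11, from 71548222 to 71591502), was 49.5, 60.6 and 52.04 CPM in the t-PBS and 50.7, 49.0 and 54.6 CPM in the t-DHEA livers. That gave a log2 fold change of -0.07 with a 95% interval from -0.31 to 0.17. The values of Pcyt1a lay close together apart from t-PBS rat 2, the highest, and without that rat the log2 fold change was 0.02. Per length, Pcyt1a stood at 0.559 ± 0.0662 times the level of Chka in t-PBS livers (SD, n = 3) and at 0.829 ± 0.307 times in t-DHEA livers. The ratio reached 1.17 in t-DHEA rat 1, and the groups overlapped through t-DHEA rat 2 at 0.566.

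Pcyt2, the corresponding enzyme for ethanolamine (chromosome 10, from 109788350 to 109795697), was 332, 347 and 353 CPM in the t-PBS and 330, 390 and 323 CPM in the t-DHEA livers. Both the highest and the lowest value were those of t-DHEA livers. On the log2 scale the fold change was 0.02 (95% interval from -0.22 to 0.26), and it was -0.02 on total counts alone and -0.03 with limma on FPKM.

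Pemt, which methylates phosphatidylethanolamine to phosphatidylcholine with S-adenosylmethionine (chromosome 10, from 46339821 to 46404642), was 116, 137 and 143 CPM in the t-PBS and 117, 135 and 131 CPM in the t-DHEA livers. Rat 1 was the lowest of each group. The log2 fold change was -0.05 with a 95% interval from -0.30 to 0.20. Per length, Pemt stood at 11.9 ± 1.26 times the level of Pcyt1a in t-PBS livers and at 12.02 ± 1.150 times in t-DHEA livers (SD, n = 3 each), and the groups overlapped.

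On the oxidative branch, Chdh, the mitochondrial choline dehydrogenase that starts betaine synthesis (chromosome 16, from 6078122 to 6109382), was 177, 221 and 198 CPM in the t-PBS and 181, 152 and 179 CPM in the t-DHEA livers. The groups overlapped through t-PBS rat 1, the lowest of its group. The means were 199 ± 22.3 and 170 ± 15.9 CPM (SD, n = 3 each), which gave a log2 fold change of -0.22, a 95% interval from -0.49 to 0.05 and a raw p of 0.0929 (edgeR, quasi-likelihood). Without t-PBS rat 1 it was -0.30 with a raw p of 0.0445, which met the criteria, and without t-PBS rat 2 it was -0.13.

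Bhmt, which transfers a methyl group of betaine to homocysteine (chromosome 2, from 23236575 to 23256158), was 1017, 2157 and 1470 CPM in the t-PBS and 1680, 1159 and 1146 CPM in the t-DHEA livers. The highest and the lowest value both belonged to t-PBS livers, rat 2 and rat 1, and differed 2.12-fold. The means were 1548 ± 574 and 1328 ± 304 CPM (SD, n = 3 each). The log2 fold change was -0.22 with a 95% interval from -0.82 to 0.38, the widest of the 10 genes, and a raw p of 0.424 (edgeR, quasi-likelihood). Omitting t-PBS rat 1 gave -0.45 and omitting t-PBS rat 2 gave 0.10, so that 1 liver set its direction.

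Bhmt2, a paralogue that uses S-methylmethionine as methyl donor, lies 16169 bp beyond Bhmt, and Dmgdh begins 107 bp beyond Bhmt2. In the same livers Bhmt2 was 622, 583 and 622 CPM in the t-PBS and 661, 615 and 674 CPM in the t-DHEA livers, and its highest and lowest livers differed 1.16-fold. Those of Bhmt differed 2.12-fold. The counting method could have split reads between the paralogues where their sequences match.

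Dmgdh and Sardh are mitochondrial flavoenzymes that take the methyl groups off dimethylglycine and sarcosine. Dmgdh (chromosome 2, from 23289374 to 23370477) was 345, 392.2 and 285 CPM in the t-PBS and 380, 332 and 310 CPM in the t-DHEA livers. The t-DHEA values all fell within the range of the t-PBS values, and the means were 341 ± 53.6 and 341 ± 35.8 CPM (SD, n = 3 each). The log2 fold change was -0.00093 with a 95% interval from -0.31 to 0.31. Sardh (chromosome 3, from 5737200 to 5802129) was 229, 245 and 212 CPM in the t-PBS and 231, 255 and 225 CPM in the t-DHEA livers. It was among the steadiest of the 10 genes, with 1.203-fold between the highest and the lowest liver and a log2 fold change of 0.05 (95% interval from -0.18 to 0.28).

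In the S-adenosylmethionine cycle, Mat1a, the enzyme of adult liver that makes this methyl donor from methionine (chromosome 16, from 18690246 to 18709133), was 2318, 2093 and 2326 CPM in the t-PBS and 2534, 1890 and 2694 CPM in the t-DHEA livers. The t-DHEA livers lay on both sides of the t-PBS livers, with SDs of 426 and 132 CPM (n = 3 each). The log2 fold change was 0.08 with a 95% interval from -0.26 to 0.42. Gnmt, which consumes S-adenosylmethionine to make sarcosine (chromosome 9, from 16565225 to 16568627), was 34.6, 39.1 and 37.3 CPM in the t-PBS and 30.2, 35.9 and 32.7 CPM in the t-DHEA livers. The groups overlapped only through t-DHEA rat 2 and t-PBS rat 1. The log2 fold change was -0.17 with a 95% interval from -0.41 to 0.07 and a raw p of 0.151 (edgeR, quasi-likelihood). The Gnmt locus overlaps that of Pex6, a peroxisomal gene, from base 16566688 on. The setting of strand in the counting was not given in the sources used here, so that counts of Gnmt could include reads of Pex6. Pex6 held 2674 counts over the 6 livers, beside 2789 for Gnmt, and this limit applies to every Gnmt value given here. No other of the 10 loci overlapped an annotated gene of the table.

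**Figure D3:**
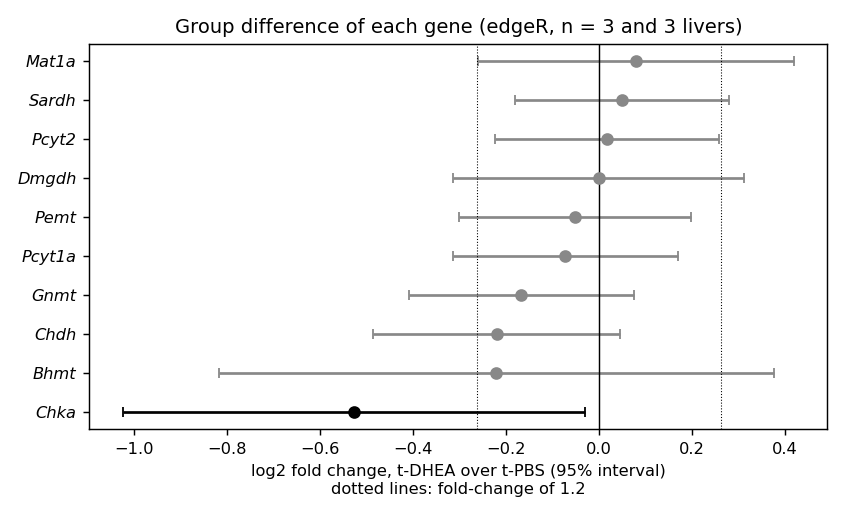
Log2 fold change of t-DHEA over t-PBS livers for each gene with its 95% interval from edgeR (n = 3 and 3 livers); dotted lines mark a fold-change of 1.2 either way. The interval of Chka ends at -0.03, and the intervals of the other 9 genes include 0.

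For 8 of the 10 genes the 95% interval lay within a fold-change of 1.5 either way, and the exceptions were Chka and Bhmt. Of the 10 genes, 7 had a negative log2 fold change and the median was -0.06, beside a median of 0.0013 over all genes tested. Only Chka, Bhmt and Chdh varied more between their highest and lowest liver than the median of all genes tested, at 2.42-fold, 2.12-fold and 1.45-fold against 1.43-fold. For none of the 10 did the groups separate. Of all genes tested 10.1% did (5.42% with every t-DHEA liver lower), and 10 genes are too few to stand apart from this share.

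The t-PBS rat 2 liver was the highest of the 6 for 6 of the 10 genes, namely Bhmt, Dmgdh, Chdh, Gnmt, Chka and Pcyt1a, and the lowest for none. It was the highest for 15.6% of the 7145 genes tested with a mean of at least 10 CPM. These 6 genes share that library. Without it none of the 10 genes met the criteria, and the same was true without t-DHEA rat 1 or without t-DHEA rat 3.

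**Figure D4:**
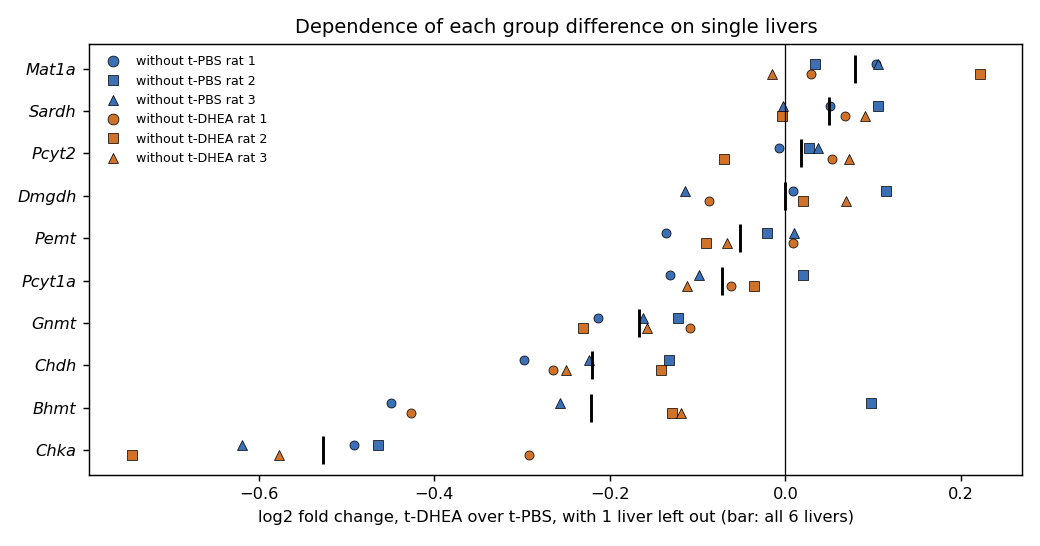
Log2 fold change of each gene with 1 liver left out, by the liver left out, and a black bar for all 6 livers. Bhmt crosses to 0.10 without t-PBS rat 2, and Chka lies between -0.74 (t-DHEA rat 2 omitted) and -0.29 (t-DHEA rat 1 omitted).

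The wider pathway was described with 5 lists of other genes, of which 76 were tested. Of these, 7 met the criteria (9.21%, beside 4.95% of all genes tested), with 2 higher and 5 lower in t-DHEA livers, and none had an adjusted p below 0.05. The share depended on the test. With DESeq2, the likelihood-ratio test and the replicate block it was 5.26%, beside 3.39%, 4.98% and 4.41% of all genes. The lists were chosen with earlier results of these data known. In transport and the Kennedy pathway, 1 of 11 genes met the criteria (9.09%, beside 4.95%), with a median log2 fold change of -0.06. Selenoi, which joins CDP-ethanolamine to diacylglycerol, fell from 51.96, 48.6 and 50.3 CPM in the t-PBS to 44.5, 33.5 and 44.7 CPM in the t-DHEA livers, with a log2 fold change of -0.30. It held in 2 of 6 fits with a liver omitted and was -0.17 without t-DHEA rat 2. Chkb, the second choline kinase, had a log2 fold change of -0.18 with a raw p of 0.114 (edgeR, quasi-likelihood). Slc44a1, a choline transporter, was between 34.7 and 42.4 CPM in all livers, and Slc22a2, a choline-carrying cation transporter, had no count in any liver, where up to 3 counts, or 0.210 to 0.243 CPM, would be allowed.

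Of 14 genes of phosphatidylcholine exchange and turnover, 3 met the criteria (21.4%, beside 4.95% of all genes tested), with a median of -0.06. Of these, 1 was higher and 2 were lower in t-DHEA livers. Pisd, the mitochondrial enzyme that makes phosphatidylethanolamine from phosphatidylserine, fell from 8.68, 8.69 and 9.50 CPM to 6.11, 6.80 and 6.95 CPM, with separated groups. The difference was -0.44 (log2, SE 0.13) with a raw p of 0.0105 (edgeR, quasi-likelihood), and it met the criteria in all 6 fits that left out 1 liver. Gpcpd1, which hydrolyses glycerophosphocholine, a breakdown product of phosphatidylcholine, rose from 19.0, 20.2 and 20.3 CPM to 23.9, 22.8 and 34.5 CPM, with a log2 fold change of 0.45. Omitting t-PBS rat 1 gave 0.42 and omitting t-DHEA rat 3 gave 0.24, and Gpcpd1 did not meet the criteria in either fit. Pctp, a carrier of phosphatidylcholine between membranes, had a log2 fold change of -0.29 and met the criteria in 2 of 6 fits with a liver omitted.

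Of 14 genes of betaine, sarcosine and glycine steps, 1 met the criteria (7.14%, beside 4.95% of all genes tested), and the median was 0.01. This was Gldc, of the glycine cleavage system, with a log2 fold change of -0.27, overlapping groups and a raw p of 0.0470 (edgeR, quasi-likelihood). It held in 2 of 6 fits with a liver omitted and in 4 of 8 fits with another tool, scaling, filter, unit or block. The 21 genes tested of the methionine cycle and transsulfuration had a median log2 fold change of 0.0010.

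Of 16 genes of the folate cycle, 1 met the criteria (6.25%, beside 4.95% of all genes tested), and the median was 0.08. Aldh1l2, a mitochondrial enzyme that oxidizes formyl-tetrahydrofolate, had a log2 fold change of 0.34, and of 0.19 without t-DHEA rat 3, with overlapping groups, and held in 3 of 6 fits with a liver omitted. Shmt1, the cytosolic enzyme that moves a carbon from serine to folate, was chosen here after its values were seen. It was 92.3, 86.2 and 94.95 CPM in the t-PBS and 109, 102 and 116 CPM in the t-DHEA livers, with separated groups and a raw p of 0.0207 (edgeR, quasi-likelihood), and its fold of 1.197 stayed just under the threshold of 1.2.

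**Figure D5:**
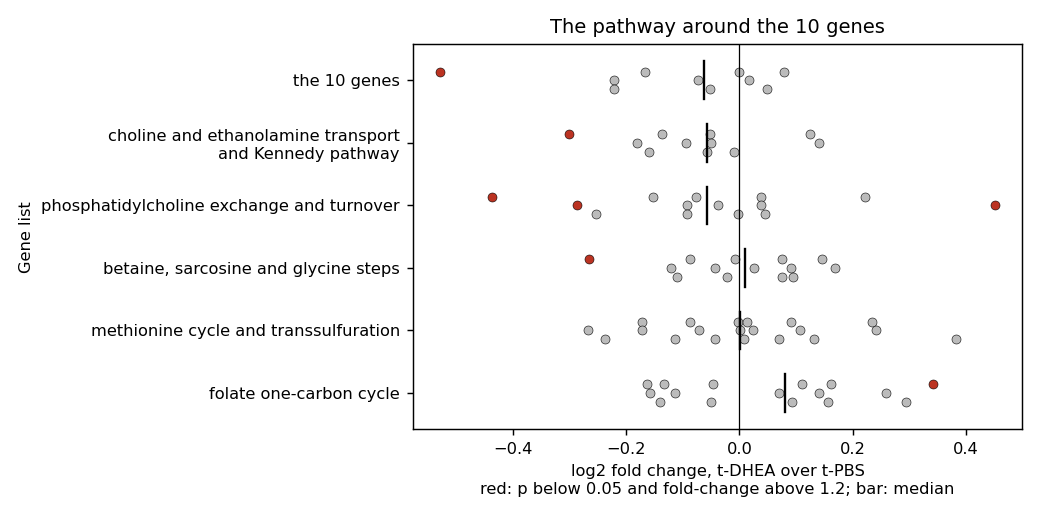
Log2 fold changes of the 10 genes and of the genes tested in the 5 lists around them, with red for genes that met the criteria and a bar at each median. The medians lie between -0.06 and 0.08. Chka is the lowest point shown at -0.53, and 1 gene of the lists is not shown.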

How the data were processed

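Total RNA of snap-frozen liver was made into paired-end libraries. The authors filtered the reads with Seqtk, mapped them to Rnor_6.0 with HISAT2 2.0.4 and counted fragments per gene with StringTie 1.3.0 (versions also in the submitters' processing notes). The deposited counts are raw fragment counts without normalization, and the deposited FPKM values are these counts over a fixed gene length and the total of the library (largest relative deviation 0.000107 where the count was 10 or more). The annotation release and strandedness were not given in the sources used here. All 12 value columns were assigned to a liver by label.

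Counts were scaled by TMM and compared between the groups with the quasi-likelihood test of edgeR 4.0.16 (R 4.3.3, no covariate) over the 12210 genes kept by filterByExpr. The test was not run on FPKM, as the study names it, since FPKM are not counts. Genes met the criteria with a raw p below 0.05 and a fold-change above 1.2. Standard errors came from the test statistic, and intervals from the t distribution. Each of the 10 genes, the called genes of each other list (up to 6, else the 2 with the lowest p) and the 3 genes most like each called member were named, beside Dbp, Per2, Arntl and albumin; other names were chosen after their values were seen. Members and lists were chosen with earlier results of these data known. Of 190 list entries, 185 matched by gene name, 1 (Selenoi) by an older symbol in a RefSeq table and 4 not at all. Limits at a count of 0 cover counting error only. Alternatives were DESeq2 1.42.0, the likelihood-ratio test, other scalings and filters, limma 3.58.1 on log2(FPKM + 0.1), a replicate block, each liver left out and a fold-change of 1.5. The tests were checked on simulated counts. No pair of livers agreed within sampling noise. No protein sequences were used here. The result of 1 gene of the lists is not reported here, although counts and medians over its list include it.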

Additional observations from a re-analysis of the deposited data

How the results depend on the processing

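Chka met the criteria in all 8 fits that changed the tool, scaling, filter, unit or block. Its log2 fold changes ran from -0.61 to -0.52, with raw p-values from 0.0124 to 0.0403 in edgeR, DESeq2 and limma. Among called genes of the other lists, Pisd met them in all 8 of these fits, Gpcpd1 in 7 and Selenoi in 6. Pctp and Aldh1l2 did in 5 each, and Gldc in 4. At a fold-change above 1.5, none of the 10 genes, none of the other pathway genes (0 of 76) and 275 genes of the table (2.25%) met the criteria. With 1 liver left out, 0 to 1 of the 10 genes met them. None did without t-PBS rat 2, t-DHEA rat 1 or t-DHEA rat 3, and the gene was Chdh in place of Chka without t-PBS rat 1. Of the 76 other pathway genes, 7 met the criteria with all 6 livers in the quasi-likelihood test (9.21%, beside 4.95% of all genes tested). With DESeq2, the likelihood-ratio test and the replicate block 4 did each (5.26%), beside 3.39%, 4.98% and 4.41% of all genes. With 1 liver left out between 4 and 8 did (5.26% to 10.5%), the fewest without t-PBS rat 3. The shares of all genes in those fits ran from 4.15% to 6.01%.

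Of 140 log2 fold changes of the 10 genes under the alternatives, 19 changed sign, all of genes that had not met the criteria. Left-out livers gave ranges of -0.13 to 0.020 for Pcyt1a, -0.070 to 0.073 for Pcyt2, -0.14 to 0.0099 for Pemt, -0.45 to 0.10 for Bhmt, -0.11 to 0.11 for Dmgdh, -0.0040 to 0.11 for Sardh, -0.016 to 0.22 for Mat1a and -0.016 to 0.17 for albumin. Pcyt2 was -0.021 on total counts alone and -0.025 with limma on FPKM. Dmgdh was 1.32e-05 with DESeq2, 3.80e-05 with RLE size factors, 0.0067 without a filter and 0.0062 with the replicate block. Rats of the same number did not deviate together (r of deviations from -0.059 to -0.0097 over 7145 genes). Those of unlike number gave -0.084 to 0.11. No pairing by number was seen, which 3 livers per group cannot exclude. Under the block the 10 genes gave the same single call, and 539 genes of the table (4.41%) met the criteria. With 3 livers per group, differences within the 95% intervals were not excluded.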
